A study of Mus musculus with 12 samples.

Results

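The genes described here are 10 mouse genes of lipid hydrolysis and eicosanoid synthesis or breakdown: Pla2g4c, Pla2g4a, Pnliprp2, Ptgs1, Ptgs2, Ptges, Hpgd, Hpgds, Alox5ap and Ltc4s. They were chosen by symbol from 46517 gene identifiers, all 10 were found, and 8 of the 10 passed the filter on low counts that left 12522 genes for testing; Alox5ap and Ltc4s did not. Pla2g4c and Pnliprp2 were put on the list because of their pattern in these same samples, so their values are a description and carry no test. RNA-seq was done on epithelium detached from the colon of C57BL/6 mice aged 7-9 weeks, in which most cells were CD45.2-EpCAM+ by flow cytometry. The 4 groups were wild-type (WT) mice left untreated, WT mice given dextran sulfate sodium (DSS, a sulfated polysaccharide that induces colitis) for 48 h, Nfkb2-/- (KO) mice left untreated, and KO mice given DSS for 48 h, with 3 biological replicates each. All groups share the strain, the age range and the EDTA detachment of cells. The labels name no promoter or cell type that would limit the Nfkb2 deletion to the epithelium. By its title the study concerns what the epithelial Nfkb2 pathway adds to canonical NF-kB signalling.

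Eicosanoid synthesis begins when a phospholipase A2 frees arachidonic acid from membrane phospholipid. Cyclooxygenases turn it into prostaglandin H2, which terminal synthases convert to prostaglandin E2 or D2, while the lipoxygenase branch leads to leukotrienes, and a dehydrogenase inactivates prostaglandins. In the colon, prostaglandin E2 is known for supporting epithelial repair, and much of the prostaglandin and leukotriene machinery is known from tuft, mast and myeloid cells.

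Because the pattern of Pla2g4c and Pnliprp2 leads the values below, the 300 bases around their RefSeq start sites (GRCm38.p6, 250 before to 50 after) are shown, beside those of Cyp2c55, the gene whose profile was nearest to that of Pla2g4c. All 3 windows lie on the plus strand, at chr7:13325417-13325716, chr19:58759473-58759772 and chr19:39006769-39007068 in that order. Capitals mark matches to the motifs searched.
Pla2g4c: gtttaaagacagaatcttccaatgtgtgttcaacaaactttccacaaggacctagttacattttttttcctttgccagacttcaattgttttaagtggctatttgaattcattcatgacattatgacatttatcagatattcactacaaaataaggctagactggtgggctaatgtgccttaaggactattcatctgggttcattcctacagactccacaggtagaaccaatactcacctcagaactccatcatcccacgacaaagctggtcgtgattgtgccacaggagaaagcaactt
Pnliprp2: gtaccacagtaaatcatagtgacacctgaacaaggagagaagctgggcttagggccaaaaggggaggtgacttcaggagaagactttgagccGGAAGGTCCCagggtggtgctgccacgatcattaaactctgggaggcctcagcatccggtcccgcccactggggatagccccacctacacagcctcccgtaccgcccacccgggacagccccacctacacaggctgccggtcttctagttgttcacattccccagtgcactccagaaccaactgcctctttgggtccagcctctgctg
Cyp2c55: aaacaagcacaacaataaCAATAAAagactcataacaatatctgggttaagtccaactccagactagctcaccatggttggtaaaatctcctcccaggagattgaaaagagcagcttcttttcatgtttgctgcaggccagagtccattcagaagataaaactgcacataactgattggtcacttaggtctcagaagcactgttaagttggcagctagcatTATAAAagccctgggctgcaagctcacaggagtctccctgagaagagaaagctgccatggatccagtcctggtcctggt
Both strands were searched for a TATA box (TATAAA), a CDX motif (TTTATNG), an HNF4 motif (CAAAGTCCA) and the NF-kB consensus. Of all 32851 RefSeq windows of this length, 13.6% held the TATA box, 10.9% the CDX motif, 0.475% the HNF4 motif and 5.8% the NF-kB consensus. The Pla2g4c window held none of the 4, nor did a second RefSeq window of that gene at chr7:13329072-13329371, which is not printed. Both windows lie inside the annotated gene, which begins at chr7:13324655, and the bases before that start were not searched. The Pnliprp2 window held 1 match to the NF-kB consensus, GGAAGGTCCC, on the minus strand 158 bases before the start. The Cyp2c55 window held a CDX match 232 bases before the start and a TATA box 29 bases before it, which do not overlap. A match of letters is a description of the window, and the sources used here hold no binding data. A window was found for 9 of the 10 genes, all but Alox5ap.

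Depth was 5595909 to 8117740 counts per sample, and a floor of 3 counts, under which a gene was not told from 0, stood at 0.356 to 0.529 CPM (counts scaled to a common library size). Nfkb2 counts ran from 211 to 346 over 6 WT samples and from 87 to 143 over 6 KO samples, whose mean CPM was 40.1% of that in WT (log2 difference -1.31, exact two-sided permutation p = 0.00216, the smallest that 924 rearrangements can give). All 8 epithelial markers were detected in every group, with summed levels of 21692 to 33030 CPM. Leaving out WT untreated replicate 3 raised the number of all genes called between untreated KO and WT from 436 to 725, and the interaction from 213 to 350. Library numbers ran through all WT before all KO samples, so that order and genotype cannot be told apart. Nor, in bulk samples, can fewer cells of a type and less RNA per cell be told apart.

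Pla2g4c (ENSMUSG00000033847.14, GRCm38 chr7:13324655-13360672, plus strand) encodes a calcium-independent cytosolic phospholipase A2, group IVC. It was abundant in untreated WT epithelium and low in the other groups. The 3 untreated WT samples had 2335, 1956 and 1337 CPM, and the 3 WT samples on DSS had 119, 103 and 121 CPM. Untreated KO samples had 240.5, 227 and 214.5 CPM, and KO samples on DSS had 109, 126 and 102 CPM. Every untreated WT sample was above every sample of the other groups, and untreated KO was above both DSS groups, which overlapped. The mean was 1876 ± 504 CPM in untreated WT, 114 ± 10.3 in WT on DSS, 227 ± 13.0 in untreated KO and 112 ± 12.2 in KO on DSS (SD, n = 3 each). The ratio of untreated to DSS means was 16.4 in WT and 2.03 in KO. On the log2 scale the fitted difference was -4.04 for DSS in WT and -1.02 for DSS in KO. It was -3.04 for KO against WT untreated and -0.03 for KO against WT under DSS. The difference between the DSS effects, KO minus WT, was 3.02. As the gene was picked for this pattern, these differences are a description without a test. Without WT untreated replicate 3, the lowest of its group, the log2 difference for DSS in WT was -4.23.

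Per length, Pla2g4c was among the more abundant genes of untreated WT epithelium. Its level was 1329 TPM (CPM corrected for exon length), ranked 62 to 86 among all genes in the 3 samples, against 91.4 TPM in WT on DSS, 179 in untreated KO and 85.8 in KO on DSS. It took 0.207%, 0.184% and 0.137% of all counts in the 3 untreated WT samples. In its exons, 3.137% of 50-base words occur elsewhere among annotated genes, including the pseudogene Pla2g4c-ps. Of 8 markers of mature colonocytes, 8 fell under DSS in WT (3.50% of all genes did) and 7 in KO (2.04%), and between untreated KO and WT 3 were lower (1.76%) and 1 higher (1.72%). Under DSS 5 of these markers were higher in KO than WT (1.77%) and 0 lower (1.34%). The interaction of genotype and DSS called 3 of them in the positive direction (1.17%) and 0 in the negative (0.527%). Their summed level was 9220 to 10390 CPM in untreated WT, 2097 to 2494 in WT on DSS, 5561 to 6052 in untreated KO and 2490 to 3065 in KO on DSS, and their part in the Pla2g4c values was not tested. Pla2g4c equalled 22.5%, 21.2% and 13.1% of that sum in untreated WT and 3.76% to 5.78% of it in the other 9 samples.

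Pnliprp2 (ENSMUSG00000025091.3, chr19:58759719-58777534, plus strand), a pancreatic lipase-related protein that hydrolyses galactolipids and other dietary lipids, had a like profile at a lower level. It had 90.8, 65.2 and 46.0 CPM in untreated WT, 7.73, 8.52 and 6.02 in WT on DSS, 7.26, 7.67 and 3.68 in untreated KO, and 3.71, 8.29 and 3.60 in KO on DSS. The untreated WT samples were again above all others, and the other 3 groups overlapped. Group means were 67.3 ± 22.5, 7.42 ± 1.28, 6.20 ± 2.20 and 5.20 ± 2.68 CPM in the same order (SD, n = 3). The fitted log2 difference, again a description without a test, was -3.17 for DSS in WT, -0.25 for DSS in KO and -3.44 for KO against WT untreated. The pancreatic acinar markers Prss1, Cpa1, Cela3b, Amy2a5 and Pnlip were at 0 in all 12 samples. Of the 8 acinar markers, 1 or 2 had a count in each group, and nearly all of their summed level was Cela1. That sum was 169 to 253 CPM in untreated WT, 185 to 234 in WT on DSS, 252 to 314 in untreated KO and 254 to 314 in KO on DSS.

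**Figure D1:**
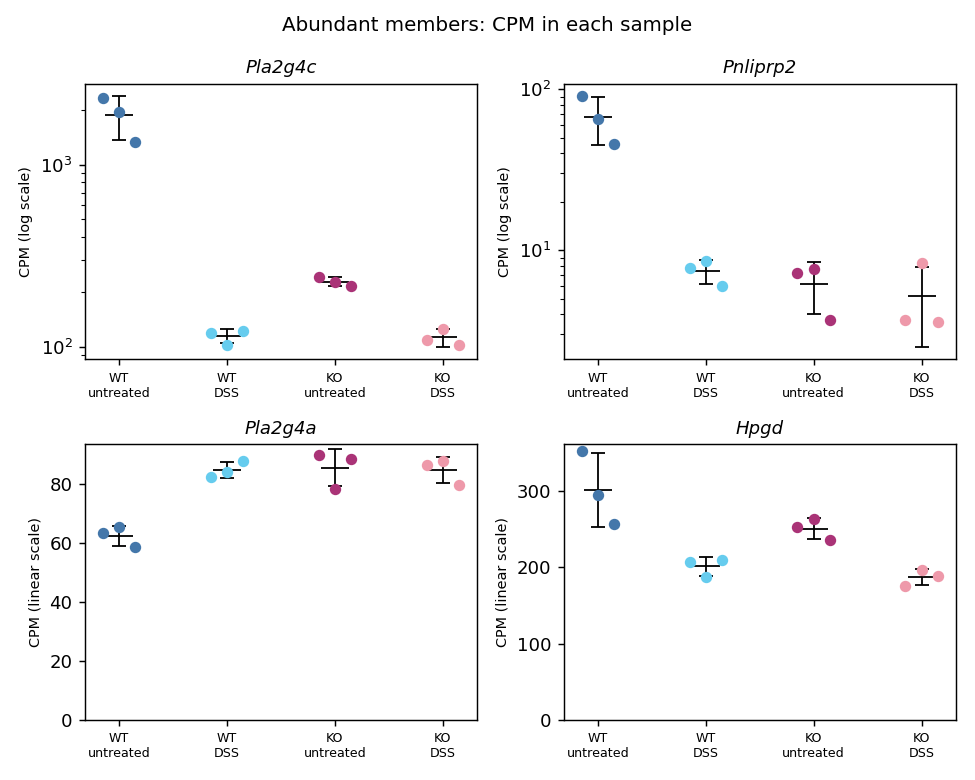
CPM of Pla2g4c, Pnliprp2, Pla2g4a and Hpgd in each sample (points), with the mean and SD of the 3 samples of each group (bars); the upper panels have a log axis and the lower panels a linear axis from 0. Untreated WT samples are the highest for Pla2g4c (1337 to 2335 CPM) and Pnliprp2 (46.0 to 90.8 CPM) and the lowest for Pla2g4a (58.6 to 65.3 CPM).

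Likeness of profiles was measured as the root mean square difference of centred log2 CPM over the 12 samples, among 8855 genes. The nearest to Pla2g4c were Cyp2c55 at 0.558, Pnliprp2 at 0.577 and Ak4 at 0.677, and near to Pnliprp2 were Pla2g4c at 0.577 and Cyp2c55 at 0.646. Pla2g4c and Pnliprp2 were both picked for their pattern in these samples, so their nearness to each other is not an independent result. Cyp2c55, a cytochrome P450 that oxidises arachidonic acid, had means of 2240 ± 408, 328 ± 42.2, 579 ± 46.5 and 347 ± 42.3 CPM in untreated WT, WT on DSS, untreated KO and KO on DSS (SD, n = 3).

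**Figure D2:**
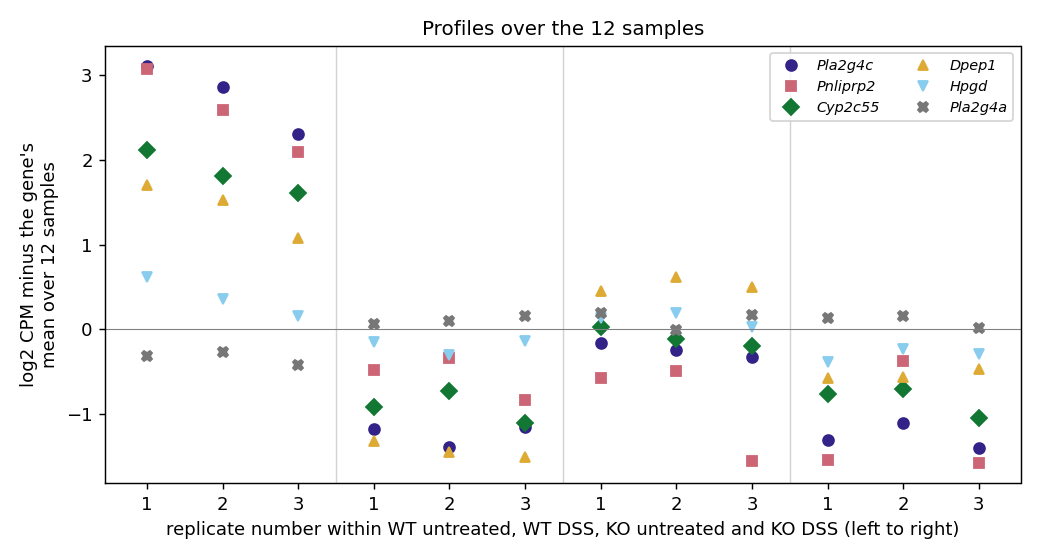
Log2 CPM of 6 genes in each of the 12 samples, minus each gene's mean over those samples, with the groups separated by vertical lines. Pla2g4c, Pnliprp2, Cyp2c55 and Dpep1 stand highest in the 3 untreated WT samples, where Pla2g4a is lowest.

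Pla2g4a (ENSMUSG00000056220.13, chr1:149829618-149961290, minus strand) encodes the calcium-dependent cytosolic phospholipase A2 that is the main source of arachidonic acid for eicosanoids, and it was lowest where Pla2g4c was highest. It had 63.1, 65.3 and 58.6 CPM in untreated WT, 82.3, 83.8 and 87.6 in WT on DSS, 89.6, 78.2 and 88.3 in untreated KO, and 86.5, 87.8 and 79.7 in KO on DSS. Untreated WT was below every other sample, and the other 3 groups overlapped. In WT, Pla2g4a rose under DSS from 62.4 ± 3.43 to 84.6 ± 2.71 CPM (SD, n = 3), by 0.44 on the log2 scale (SE 0.11, edgeR quasi-likelihood test, Benjamini-Hochberg adjusted p = 0.0302). In untreated mice it was higher in KO, at 85.4 ± 6.26 CPM, by 0.45 (SE 0.11, edgeR adjusted p = 0.0396). Both comparisons use the same 3 untreated WT samples. Under DSS the genotypes differed by 0.00086 (edgeR adjusted p = 1.00), a value whose sign changed between settings. The DSS difference in KO was -0.01 (edgeR adjusted p = 0.977), and the difference between the DSS effects, -0.45 (SE 0.16), did not pass (edgeR adjusted p = 0.255). Leaving out 1 sample ended the call for DSS in WT in 7 of 12 fits (each WT sample and KO untreated replicate 3) and the genotype call in all 12; over all 18 alternatives the adjusted p ran from 0.00895 to 0.139 and from 0.00990 to 0.151.

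The ratio of Pla2g4c to Pla2g4a, per length, was 63.1, 51.1 and 38.9 in untreated WT. It was 2.48, 2.09 and 2.36 in WT on DSS, 4.58, 4.96 and 4.14 in untreated KO and 2.15, 2.44 and 2.18 in KO on DSS. Pla2g4c was therefore the higher of the pair in all 12 samples.

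Of the 6 genes that were tested and not picked for their pattern, 2 passed for DSS in WT, against 6.30% of all genes. None passed for DSS in KO by edgeR, against 3.92% of all genes; 1 had an unadjusted p under 0.05 and 1 passed by DESeq2. Between untreated KO and WT 1 passed, against 3.48% of all genes. Under DSS none passed by edgeR between the genotypes, against 3.11%, with 1 at an unadjusted p under 0.05 and 0 by DESeq2. The interaction of genotype and DSS called none by edgeR, against 1.70%, with 1 at an unadjusted p under 0.05 and 0 by DESeq2. Shares of all genes at the unadjusted cut and by DESeq2 were not computed.

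Hpgd (ENSMUSG00000031613.8, chr8:56294585-56321043, plus strand), the dehydrogenase that inactivates prostaglandins, was the other gene to pass for DSS in WT. It had 353, 295 and 257 CPM in untreated WT, 207, 187 and 210 in WT on DSS, 253, 263 and 236 in untreated KO, and 176, 197 and 188 in KO on DSS. In both genotypes the untreated samples lay above the DSS samples without overlap. In WT, Hpgd fell by 0.58 on the log2 scale (SE 0.12, edgeR adjusted p = 0.00595), from 302 ± 48.3 to 201 ± 12.6 CPM (SD, n = 3), and this passed in 18 of 18 alternatives. In KO the means were 251 ± 13.8 and 187 ± 10.3 CPM, a difference of -0.42 (SE 0.12, edgeR adjusted p = 0.0590). With the replicate number as a block, which pairs same-numbered KO samples, the difference was -0.42 with an edgeR adjusted p of 0.0443. The DSS effects did not differ detectably between genotypes (0.16, edgeR adjusted p = 0.848). KO against WT was -0.27 untreated (edgeR adjusted p = 0.274) and -0.10 under DSS (edgeR adjusted p = 0.758).

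The cyclooxygenases were near the detection limit. Ptgs1 (ENSMUSG00000047250.12, chr2:36230426-36252272, plus strand), the constitutive cyclooxygenase, had 6, 18 and 4 counts in untreated WT, 3, 0 and 6 in WT on DSS, 8, 15 and 1 in untreated KO, and 0, 4 and 18 in KO on DSS. All groups overlapped, and its smallest edgeR adjusted p over the 5 comparisons was 0.583. In its exons 148 bases overlap Gm43621, so reads there cannot be assigned to one of them without strand.

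Ptgs2 (ENSMUSG00000032487.8, chr1:150100031-150108227, plus strand), the inducible cyclooxygenase, had 0, 1 and 1 counts in untreated WT, 5, 6 and 2 in WT on DSS, 22, 1 and 19 in untreated KO, and 9, 19 and 4 in KO on DSS. All 3 untreated WT samples, 1 WT sample on DSS and 1 untreated KO sample were under the floor of 3 counts. Summed counts of 13 in WT on DSS against 2 in untreated WT gave a CPM ratio of 6.25 (95% exact interval 1.41 to 57.0, counting error only; edgeR adjusted p = 0.370). Summed counts of 42 in untreated KO against 2 in untreated WT gave 17.0 (4.42 to 145), and the edgeR adjusted p was 0.0982. That comparison passed without the filter on low counts (edgeR adjusted p = 0.0362) and without KO untreated replicate 2, and in no other alternative. Markers of macrophages and neutrophils summed to 72.2 to 83.8 CPM in untreated WT, 196 to 206 in WT on DSS, 126 to 136 in untreated KO and 189 to 199 in KO on DSS, with Adgre1 at 0 in untreated WT; their part in the Ptgs2 counts was not tested.

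Ptges (ENSMUSG00000050737.13, chr2:30889471-30929863, minus strand), the inducible prostaglandin E synthase, had 29, 11 and 26 counts in untreated WT, 34, 22 and 27 in WT on DSS, 4, 34 and 26 in untreated KO, and 5, 53 and 46 in KO on DSS. The groups overlapped, and replicate 1 was far below the other two in both KO groups. In CPM the same-numbered KO samples had 0.537 and 0.882, 4.14 and 7.84, and 3.08 and 6.36 (untreated and DSS), higher on DSS at each of the 3 numbers. The sample titles give these numbers but state no pairing. The DSS difference in KO was 0.96 on the log2 scale (SE 0.70, edgeR adjusted p = 0.578), or 0.93 with the replicate block (SE 0.44, edgeR adjusted p = 0.294), and no comparison passed.

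Hpgds (ENSMUSG00000029919.5, chr6:65117293-65144908, minus strand), the hematopoietic prostaglandin D synthase, had 24, 20 and 13 counts in untreated WT, 18, 22 and 13 in WT on DSS, 21, 15 and 48 in untreated KO, and 41, 27 and 44 in KO on DSS. In CPM the KO samples on DSS were above the WT samples on DSS without overlap, with a ratio of means of 2.23. The log2 difference of 1.14 (SE 0.47) did not pass (edgeR adjusted p = 0.258), and DSS in KO gave 0.73 (edgeR adjusted p = 0.481). Pan-leukocyte markers summed to 10.5 to 24.0 CPM in untreated WT, 30.6 to 33.5 in WT on DSS, 53.6 to 72.0 in untreated KO and 78.7 to 106 in KO on DSS. Mast cell markers summed to 39.0 to 46.6, 45.0 to 53.2, 53.5 to 67.8 and 58.6 to 71.3 CPM in the same order. The mast cell receptor gene Ms4a2 was at 0 in all but KO on DSS, and Mcpt4 and Fcer1a were at 0 in untreated WT. The part of pan-leukocyte or mast cell markers in the Hpgds counts was not tested.

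Alox5ap (ENSMUSG00000060063.8, chr5:149264767-149288153, plus strand), which presents arachidonic acid to the leukotriene-forming lipoxygenase, had 0, 6 and 10 counts in untreated WT, 0, 1 and 4 in WT on DSS, 4, 0 and 2 in untreated KO, and 2, 2 and 4 in KO on DSS. Ltc4s (ENSMUSG00000020377.13, chr11:50236461-50238616, minus strand), leukotriene C4 synthase, had 7 counts in all 12 samples together, with none above the floor of 3. Neither could be compared at this depth. Their exons overlap Gm19719 by 189 bases and Gm26542 by 268 bases. Tuft cell markers, known to accompany several of these genes, summed to 44.7 to 72.3 CPM in untreated WT, 26.8 to 31.4 in WT on DSS, 21.4 to 22.9 in untreated KO and 33.6 to 43.4 in KO on DSS, with Il25 at 0 in every group. Of 10 tuft markers tested, edgeR called 0 in each comparison. The shares of all genes were 6.30% for DSS in WT, 3.92% for DSS in KO, 3.48% and 3.11% between genotypes untreated and under DSS, and 1.70% for the interaction. In the same order 4, 2, 6, 0 and 5 had an unadjusted p under 0.05, and DESeq2 called 0, 0, 2, 0 and 1. Shares of all genes at that cut and by DESeq2 were not computed.

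**Figure D3:**
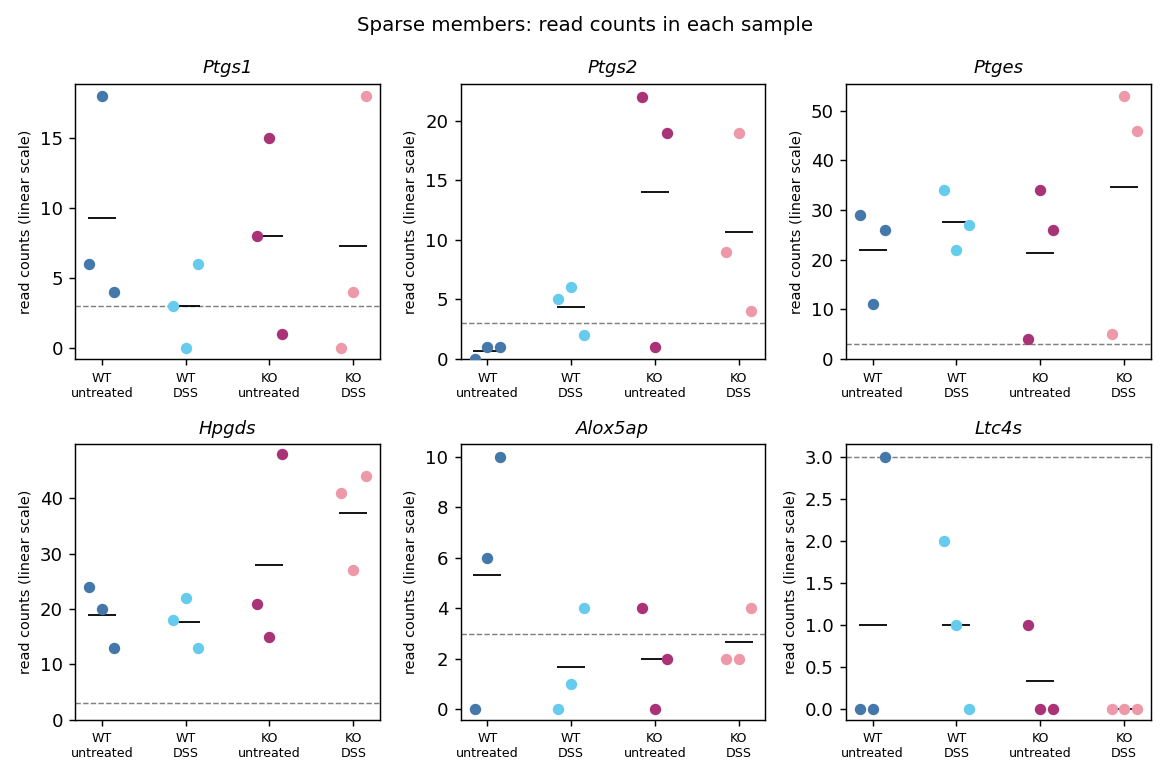
Read counts of the 6 sparse genes in each sample (points), with the group mean as a short bar and the floor of 3 counts as a dashed line. Ptgs2 lies at 0 or 1 in untreated WT and at 1, 19 and 22 in untreated KO, and Ltc4s nowhere exceeds 3.

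The rest of the pathway was taken from lists of 95 genes, of which 59 were tested. For DSS in WT, 2 of the 59 rose, beside 2.80% of all genes, and 8 fell, beside 3.50%, with a median log2 difference of -0.09 against 0.01 over all genes. For DSS in KO, 1 rose, beside 1.88%, and 4 fell, beside 2.04%, with medians of -0.05 and 0.02. Between untreated KO and WT, 1 was higher in KO, beside 1.72%, and 8 were lower, beside 1.76%, with medians of -0.18 and -0.0016. Under DSS, 1 was higher in KO, beside 1.77%, and 3 lower, beside 1.34%, with medians of -0.03 and 0.0027. The interaction called 3 in the positive direction, beside 1.17%, and 0 in the negative, beside 0.527%, with medians of 0.09 and -0.0065. Of these 31 calls 20 held in every alternative and 11 were lost in at least 1.

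Of 13 other phospholipase A2 genes tested, 2 rose under DSS in WT (2.80% of all genes did) and 1 in KO (1.88%). Between the genotypes 2 were lower in KO untreated (1.76% of all genes) and 3 under DSS (1.34%). Pla2g2a, a secreted phospholipase whose gene C57BL/6 mice are known to carry in disrupted form, rose under DSS in WT by 1.61 on the log2 scale (SE 0.35, edgeR adjusted p = 0.0122) and under DSS its level in KO was below that in WT (-2.18, SE 0.36, edgeR adjusted p = 0.00402). It was also lower in KO untreated (-1.73, SE 0.39, edgeR adjusted p = 0.0229), a call lost in 6 of 18 alternatives. Its samples had 12.5, 12.4 and 3.70 CPM in untreated WT, 25.9, 28.6 and 33.0 in WT on DSS, 2.55, 3.41 and 2.61 in untreated KO, and 5.12, 6.81 and 7.33 in KO on DSS. Pla2g5, another secreted enzyme, rose under DSS in WT by 0.74 and in KO by 0.67 (edgeR adjusted p = 0.0174 and 0.0405). Pla2g4f, a cytosolic relative of Pla2g4a, was lower in KO under DSS (-0.77, edgeR adjusted p = 0.00558). Pla2g3 was lower in KO untreated (-0.75, edgeR adjusted p = 0.0261) and under DSS (-0.78, edgeR adjusted p = 0.0257). Leaving out WT DSS replicate 3 ended the WT calls of Pla2g2a and Pla2g5, 8 of 12 such fits ended the KO call of Pla2g5, and 4 of 12 ended each call of Pla2g3.

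Of 11 tested cytochrome P450 and epoxide hydrolase genes, 4 fell under DSS in WT (3.50% of all genes did) and 3 in KO (2.04%), and 2 were lower in untreated KO than WT (1.76%). Cyp2c55 fell by 2.77 on the log2 scale in wild type (SE 0.15, edgeR adjusted p = 2.30e-08) and by 0.74 in KO, and Cyp2c65 fell by 2.26 and 1.16. Both were lower in untreated KO than in WT, Cyp2c55 by a log2 difference of -1.95 (edgeR adjusted p = 2.67e-06) and Cyp2c65 by -1.39 (edgeR adjusted p = 4.95e-05). Cyp4f14, which degrades leukotriene B4, fell by 1.78 in WT and 1.24 in KO, and Cyp2j6 fell by 0.50 in WT, a call that 5 of 12 fits without 1 sample lost. Dpep1, a membrane dipeptidase that processes leukotriene D4, had 813, 718 and 530 CPM in untreated WT, 100.3, 91.6 and 87.9 in WT on DSS, 343, 383 and 352 in untreated KO, and 168, 169.6 and 180.5 in KO on DSS. It fell by 2.88 in WT (edgeR adjusted p = 1.26e-08) and by 1.06 in KO, was lower in untreated KO than WT (-0.94), and was higher in KO under DSS (0.89, edgeR adjusted p = 0.00195).

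Ptger4, the prostaglandin E2 receptor EP4, fell under DSS in WT by 1.11 (SE 0.18, edgeR adjusted p = 0.00143), from 34.5, 37.2 and 40.1 CPM to 14.2, 20.1 and 17.4. Its DSS difference in KO was -0.43 (edgeR adjusted p = 0.254), and its interaction did not pass (edgeR adjusted p = 0.319). Abcc4, a prostaglandin exporter, was higher in untreated KO (1.74, SE 0.40, edgeR adjusted p = 0.0266). Among lipases, Lpl and Mgll fell under DSS in WT by 2.44 and 1.96 and were lower in untreated KO (-1.48 and -1.61), and Daglb, a diacylglycerol lipase, was lower there too (-0.65). For DSS in KO, Lpl and Mgll differed by -1.10 and -0.97 without passing (edgeR adjusted p = 0.135 and 0.151). Their interactions did not pass either (edgeR adjusted p = 0.339 and 0.483). The untreated genotype calls were lost in 4 of 12 fits without 1 sample for Abcc4, 5 for Lpl, 2 for Mgll and 4 for Daglb. Of 9 tested genes that activate or reacylate arachidonate edgeR called 0 in each comparison, against 1.70% to 6.30% of all genes. At an unadjusted p under 0.05 these counted 4 for DSS in WT, 2 for DSS in KO, 3 and 1 between genotypes untreated and under DSS, and 0 for the interaction. DESeq2 called 0, 1, 1, 1 and 0. Shares of all genes at the unadjusted cut and by DESeq2 were not computed, so these counts have no background to be read against.

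**Figure D4:**
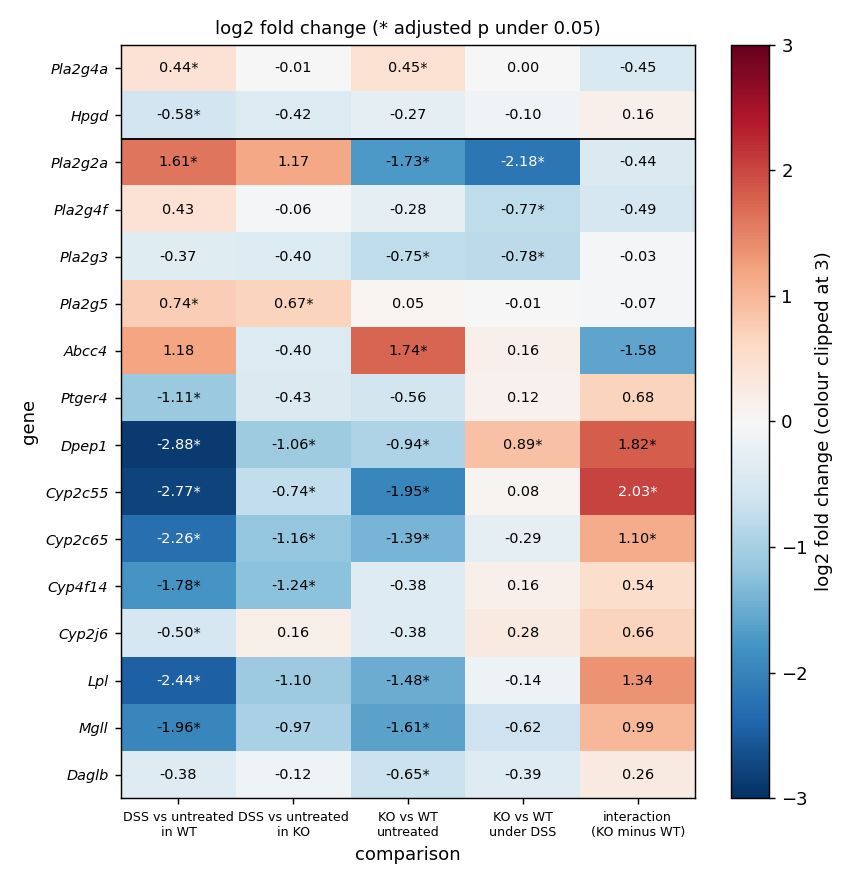
Log2 fold change of Pla2g4a, Hpgd (above the line) and 14 pathway genes in the 5 comparisons, with an asterisk where the edgeR adjusted p was under 0.05 and the colour limited at 3. Dpep1, Cyp2c55 and Cyp2c65 are the genes with an asterisk in the interaction column.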

How the data were processed

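Colonic epithelial RNA from 12 mice was sequenced after SMART-seq2 amplification and Nextera XT tagmentation, per the labels' protocols, which mark neither strand nor molecules. The deposited values are raw read counts per gene, 1 table per sample. STAR 2.5.2b, featureCounts 1.5.0 and the builds GRCm38 and mm10 are named, per the submitters' processing notes; the annotation release and strand setting are not given in the sources used here. Of 46517 identifiers, 46005 matched GRCm38 annotation without the version.

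Counts were scaled by TMM and tested with edgeR 4.0.16 in R 4.3.3 (quasi-likelihood F test, filterByExpr, 1 coefficient per group over all 12 samples, two-sided, Benjamini-Hochberg adjustment over 12522 genes, threshold 0.05). CPM use TMM-scaled libraries, log2 CPM a prior count of 2, and TPM were computed from exon lengths. The test was checked on simulated counts. DESeq2 1.42.0, DESeq2 size factors, other filters, only the groups compared, a replicate block and leaving out each sample were the alternatives. For the DSS comparisons and the interaction, the block paired same-numbered samples within each genotype, a pairing that the sample titles do not state. For the comparisons between genotypes it was the replicate number shared by WT and KO. Same-numbered KO samples deviated together (r of 0.204, 0.106 and 0.127).

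The genes and lists were chosen with earlier results of these data known. Named were all 10 genes, up to 4 called genes per pathway list (mean log2 CPM 1 or more), and, for genes whose group means span 1 or more, the 3 nearest profiles among genes at 3 or more. Of these, 1 gene is not reported here. Promoter windows are from RefSeq, GRCm38.p6. Intervals and floors cover counting error only.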

Additional observations from a re-analysis of the deposited data

Results flagged for a closer look

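For 3 pathway genes the DSS effect differed between the genotypes by the test of the interaction itself, KO minus WT on the log2 scale. Dpep1 differed by 1.82 (SE 0.19, edgeR adjusted p = 7.57e-05), Cyp2c55 by 2.03 (SE 0.19, edgeR adjusted p = 5.66e-05) and Cyp2c65 by 1.10 (SE 0.20, edgeR adjusted p = 0.0100). All 3 passed in each of 17 alternatives. Under DSS, KO against WT did not pass for Cyp2c55 (0.08, edgeR adjusted p = 0.860) or Cyp2c65 (-0.29, edgeR adjusted p = 0.407). For Dpep1 it did (0.89, edgeR adjusted p = 0.00195). The interaction uses the same untreated WT samples as the calls for DSS in WT and for KO against WT untreated.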

How the results depend on the processing

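With only the groups compared in the fit, 467 genes passed for DSS in WT and 195 between untreated genotypes. Without the filter on low counts, 776 passed for DSS in KO, 703 and 642 between genotypes untreated and under DSS, and 356 for the interaction; DESeq2 gave 779, 736, 637 and 344. Of the genes not picked for their pattern, 1 passed for DSS in WT without the filter, with only the groups compared and with the block. For DSS in KO 1 passed in those settings and with DESeq2. Between untreated genotypes 0 passed with only the groups compared and with the block. The causes were not tested. Leaving out 1 sample gave 483 to 958, 235 to 710, 212 to 725, 160 to 566 and 152 to 350 genes for DSS in WT, DSS in KO, the genotypes untreated, the genotypes on DSS, and the interaction; of the genes not picked it gave 1 to 2, 0 to 1 and 0 to 1 in the first 3 and 0 in the others. The near-zero difference of Pla2g4a between genotypes under DSS changed sign, to -0.00208 with DESeq2 size factors, -0.000126 without the filter, -0.00218 with DESeq2, -0.00195 with only the groups compared and -0.0356 to 0.0429 without 1 sample; for DSS in KO it ran from -0.0755 to 0.0261. Nfkb2 stayed between -1.38 and -1.23. With the replicate block 893, 616, 345, 290 and 263 genes passed in the same order, and Pla2g4a had edgeR adjusted p of 0.0501 for DSS in WT and 0.0717 between untreated genotypes. Between genotypes, 0 of 6 samples correlated best with their own number, untreated (r of -0.175 to -0.0535) or under DSS (-0.117 to -0.0103). The shared number therefore marked no pairs in the genotype comparisons. Same-numbered WT samples, which the block for DSS in WT paired, correlated at 0.0138 to 0.128, and 6 of 6 samples correlated best with their own number. Counts of at most 22 per sample limit Ptgs1, Ptgs2, Alox5ap and Ltc4s. The interaction has no fit with only the groups compared.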

Other observations

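The profiles nearest to 3 of the sparse genes, by the same root mean square difference over 12 samples, were Lpcat1, Foxa2 and Slc7a8 for Ptgs2 (0.671 to 0.756), Tprgl, Pink1 and Bahd1 for Hpgds (0.314 to 0.340), and Zscan22, Amn1 and Tmem220 for Ptgs1 (0.845 to 0.864). This difference is not scaled by the spread of each gene, so its size cannot be compared between genes. No comparison passed for Ptgs2, Hpgds or Ptgs1 in the main fit, and with counts this low their nearest profiles may reflect counting error. Of the marker lists, goblet markers summed to 18814 to 29887 CPM in untreated WT, 15133 to 17479 in WT on DSS, 13751 to 15126 in untreated KO and 26692 to 30628 in KO on DSS.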
